A study of Papio anubis with 8 samples.

Results

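Genes for potassium channel subunits and for HCN channels, which pass the pacemaker current, were described in olive baboon (Papio anubis) fetuses near term, at 0.9 of gestation, from hippocampal RNA. A gene was a member if its symbol was KCN followed by letters and a number, or HCN followed by a number from 1 to 4. The rule found 97 of the 37053 genes in the deposited table, all protein-coding, in 21 subfamilies. HCN2 had no row under that symbol and was not analysed here. The study concerned fetuses of dams with different fat mass and leptin, but the labels give no maternal group, treatment, sex or exact age for any of the 8 libraries (AMB3 to AMB10). All libraries were hippocampal total RNA prepared with the same strand-specific kit. They were therefore kept as single unassigned samples, no group was compared with another, and no test was made. Whether the libraries stem from separate fetuses is not stated.

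Potassium channels let potassium leave the cell and so set the resting potential, end the action potential and limit repeated firing. Voltage-gated pores are built from 4 subunits of the same or related genes, and auxiliary and silent subunits, which cannot form a pore alone, change where and how these pores open. Inward rectifiers and K2P channels, whose subunits carry a pair of pore domains, hold the resting potential, calcium-activated channels follow activity, and HCN channels open on hyperpolarization and carry an inward cation current that is prominent in hippocampal pyramidal cell dendrites and interneurons.

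Total counts per library ran from 40404878 in AMB9 to 71648654 in AMB10. The unit of level is CPM, the count divided by the scaled library size and brought to a common total, and the log2 range of a gene is its highest minus its lowest library in log2 CPM. No exon lengths were used, so levels of different genes are not compared. AMB8 and AMB10 stood apart in markers of hippocampal regions and neuron types. The summed level of the 6 dentate granule cell markers was 422 CPM (AMB8) and 421 (AMB10), and 168 to 225 elsewhere. The 6 excitatory neuron markers summed to 4075 and 3815 CPM in these libraries and to between 2341 and 3137 elsewhere, and the 7 interneuron markers to 317 and 461 CPM, against 560 to 743. Of the interneuron markers 4 had AMB8 and AMB10 as their lowest libraries, but PVALB was highest in AMB10 and GAD2 second to AMB3 there. No marker of these 3 lists was at 0. PROX1, a transcription factor that marks dentate granule neurons, was at 96.6 CPM (AMB8), 81.7 (AMB10), 49.0 (AMB3) and at most 33.6 elsewhere. PROX1 was picked from its list after its values were seen. The part of this difference in the results below was not tested, and in bulk tissue fewer cells of a type and less RNA per cell cannot be told apart.

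Of the 97 channel genes, 81 passed a filter that asks for about 10 counts in every library, and 16 did not. The log2 range was at least 1 in 47 of the 81 (58.0%), against 36.1% of all genes that passed, and at least 2 in 12 (14.8%), against 9.0%. The median log2 range was 1.09 for the channel genes and 0.77 for all genes. Without AMB8 and AMB10 the count with a log2 range of at least 1 was 26 (32.1%, against 26.5% of all genes), and the count of at least 2 was 6 (7.41%, against 5.46%). Without AMB3 as well, the counts were 11 (13.6%, against 19.8%) and 3 (3.70%, against 3.41%). The members thus exceeded the background over 8 libraries. Over the 5 libraries other than AMB3, AMB8 and AMB10 their share was below it for a range of at least 1 and near it for a range of at least 2.

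AMB8 held the lowest level of 25 of the 81 genes (30.9%, against 12.3% of all genes). AMB5 held the highest level of 19 (23.5%, against 16.4%), a count that was 11 when libraries were scaled to total counts alone. In 24 genes (29.6%, against 11.6%) AMB8 and AMB10 were the pair of lowest libraries, and in 13 (16.0%, against 11.9%) they were the pair of highest. The low set included 4 of the 10 K2P genes that passed and 4 of the 8 KCNH genes. Pore subunits of the Kv1 to Kv4 families stood in both sets, 4 of 16 in the low set (KCNA3, KCNA6, KCNC2 and KCND1) and 3 in the high set (KCNA1, KCND2 and KCND3). These pairs of libraries, and the set of AMB3, AMB8 and AMB10 used below, were singled out after the values were seen. How many of all genes set those 3 libraries apart was not counted, so no background share stands beside such statements.

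**Figure D1:**
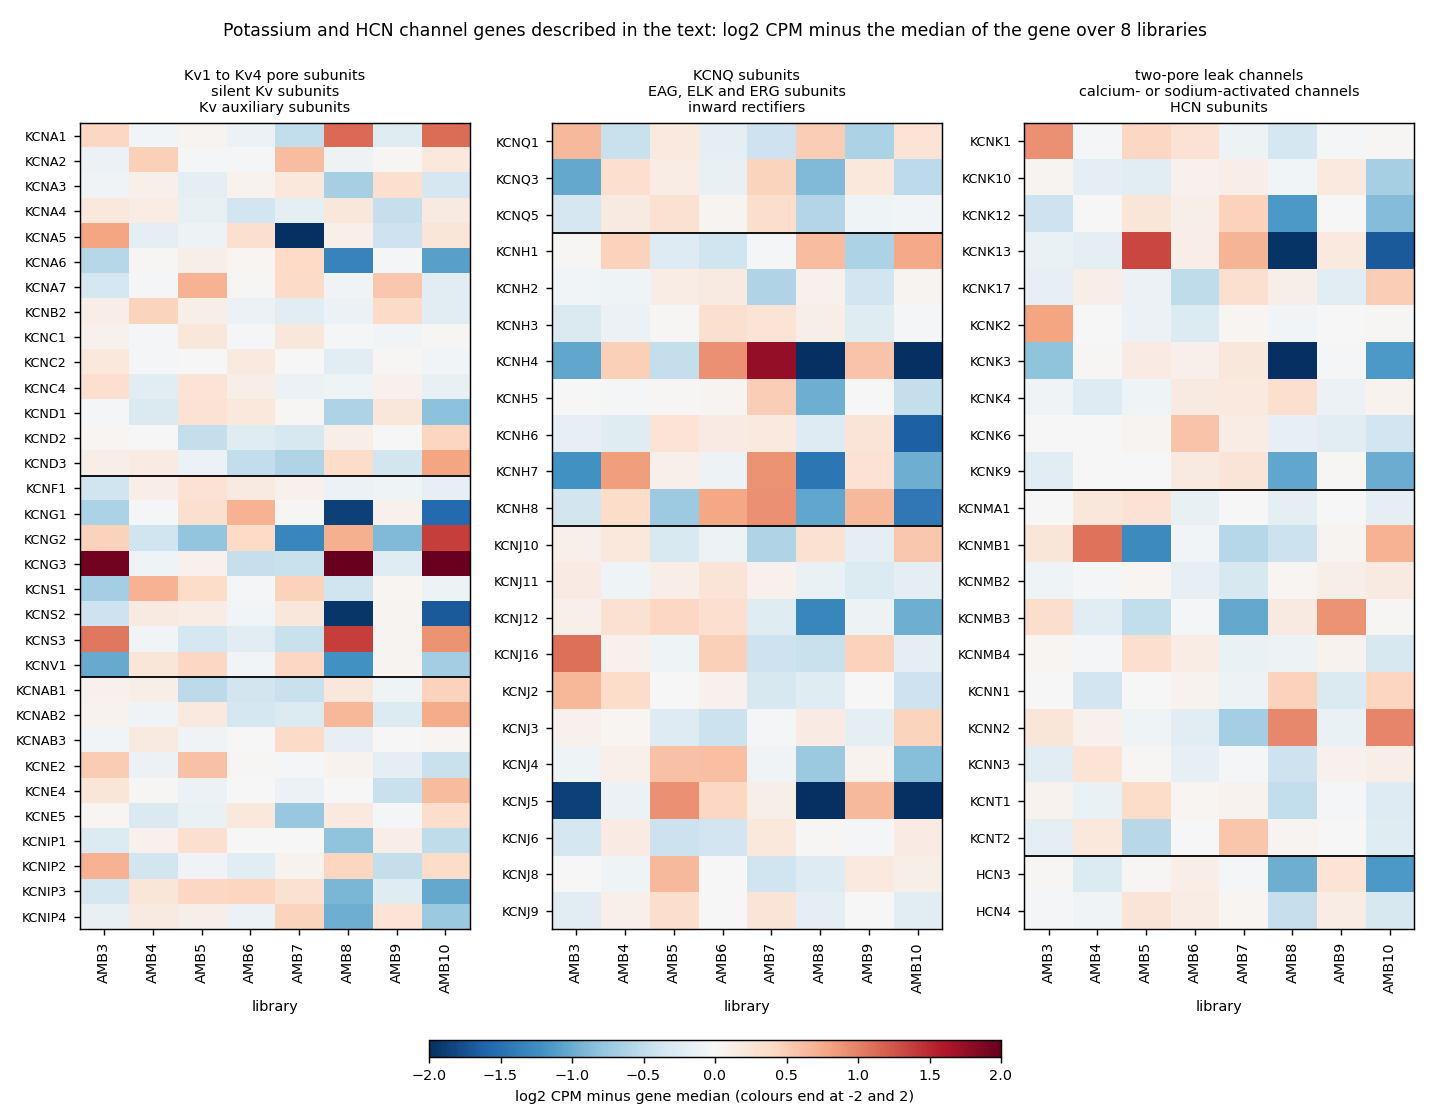
Level of the channel genes described in the text that passed the filter (rows, by channel class) in each of the 8 libraries (columns), as log2 CPM after subtraction of the gene's own median, with red above and blue below the median. KCNH4, KCNJ5, KCNK13, KCNK3, KCNG1 and KCNS2 are deep blue in AMB8 and AMB10, while KCNG3, KCNA1 and KCNN2 are red there.

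Silent Kv subunits had the largest median log2 range of the 9 classes formed here, 1.99 over the 8 genes that passed (10 in the table). All except KCNF1 had a range of at least 1, and 4 had a range of at least 2. Without AMB8 and AMB10 the counts were 6 and 1, and the median was 1.39. These proteins join KCNB (Kv2) pores and alter their voltage dependence. KCNG1 (chromosome 16, 78194130 to 78213607) stood at 23.0 CPM (AMB8), 28.7 (AMB10) and 54.1 (AMB3), and between 82.4 and 136 in the other 5 libraries, so that these 3 libraries lay below all others. KCNS2 followed the same order at its low end, with 9.79 CPM (AMB8), 11.8 (AMB10), 28.1 (AMB3) and 36.4 to 43.8 elsewhere. Its log2 range of 2.16 was 0.64 without AMB8 and AMB10. KCNV1 was at 46.3 CPM (AMB8), 53.4 (AMB3), 66.1 (AMB10) and 103 to 143 elsewhere.

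Other silent subunits ran the opposite way. KCNG3 (chromosome 14, 42672808 to 42732116) was at 7.77 CPM (AMB10), 6.94 (AMB8) and only slightly less in AMB3, and between 1.24 and 1.80 in the other 5 libraries. KCNS3 was at 17.1 CPM (AMB8), 13.6 (AMB3), 12.1 (AMB10) and 4.78 to 6.77 elsewhere. In both genes the 3 libraries did not overlap the rest. KCNG2 was highest in AMB10 with 8.67 CPM and lowest in AMB7 with 1.34, and its median was 3.43. It overlaps SLC66A2 on the opposite strand, whose median count of 2362 far exceeded the 172 of KCNG2, and whether the counting used strand is not given in the sources used here. KCNS1 had its lowest level of 3.35 CPM in AMB3 and its highest of 8.61 in AMB4. KCNF1 was the most even of the class, between 93.6 CPM (AMB3) and 150 (AMB5), with a log2 range of 0.68 that was 0.45 without AMB3.

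**Figure D2:**
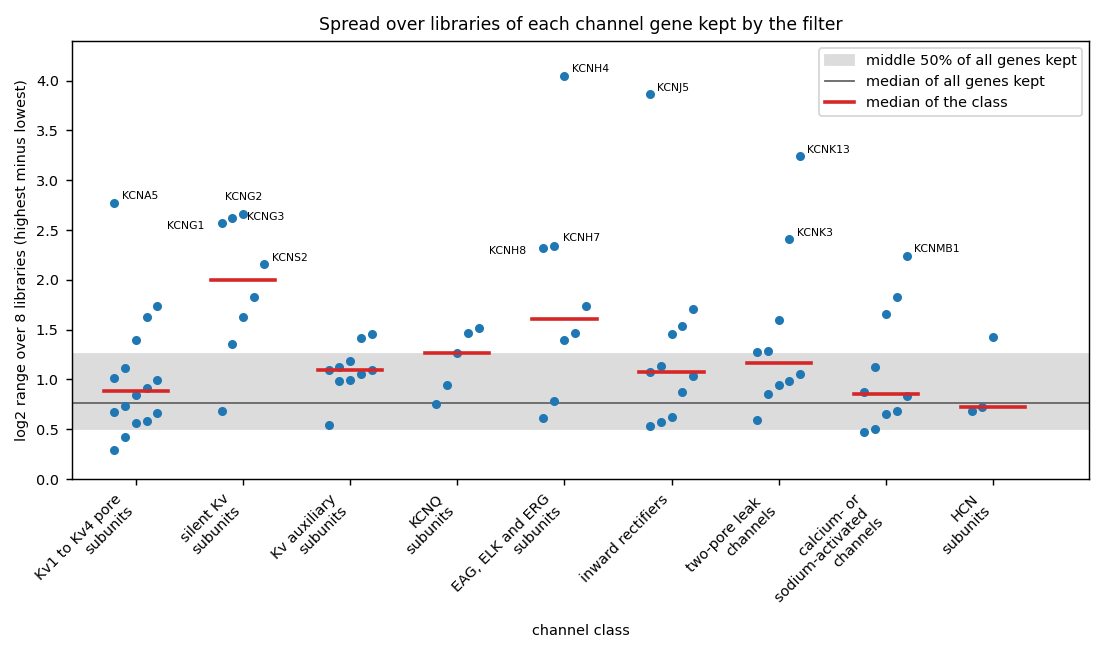
Log2 range over the 8 libraries (vertical axis) of each channel gene that passed the filter (points), by channel class (horizontal axis), with the class median in red, the median of all genes that passed as a grey line and their middle 50% as a grey band. The class medians run from 0.73 for HCN subunits to 1.99 for silent Kv subunits, and KCNH4 has the largest range, 4.05.

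Pore subunits of the Kv1 to Kv4 families varied less, with a median log2 range of 0.88 over 16 genes of 17. A range of at least 1 was reached by 6, and by 2 without AMB8 and AMB10. The Kv3 subunits, which close fast enough to allow rapid firing, had the smallest ranges within these families. KCNC1 ran from 55.7 to 68.2 CPM, and its log2 range of 0.29 was the smallest of all 81 genes. KCNC2, the Kv3 gene with the most counts, lay between 101 CPM (AMB8) and 135 (AMB3), a log2 range of 0.42 that was 0.27 without AMB8. KCNC4 had a log2 range of 0.56. KCNB2, a Kv2 delayed rectifier, lay between 3.61 and 5.75 CPM. It overlaps the pseudogene LOC116276430 on the opposite strand, which had a median count of 360.5 against 238.5.

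Kv1 genes, whose channels sit mainly on axons, did not vary in 1 direction. KCNA1 was at 136 CPM (AMB8), 135 (AMB10) and 83.4 (AMB3), and between 44.1 and 64.5 in the other 5 libraries. KCNA6 had the reverse order, with 56.9 CPM (AMB8), 67.7 (AMB10), 97.7 (AMB3) and 142 to 190 elsewhere. KCNA2, the Kv1 gene with the most counts, was lowest in AMB3 with 123 CPM and highest in AMB7 with 204, with a median of 133. KCNA4, an inactivating subunit, lay between 21.3 and 33.9 CPM, and KCNA3 between 33.1 CPM (AMB8) and 66.0 (AMB9).

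KCNA6, KCNA1 and KCNA5 lie side by side on chromosome 9, from 4843542 to 5079020, within 235.5 kb. These neighbours differed in pattern. KCNA5 was lowest in AMB7, with 71 counts or 0.993 CPM (95% Poisson interval 0.776 to 1.25), and between 3.02 and 6.99 CPM elsewhere, a log2 range of 2.77 that was 1.20 without AMB7. The second Kv1 cluster, on chromosome 1 from 108626146 to 109082023, holds KCNC4, KCNA10, KCNA2 and KCNA3. KCNA10 had 2 counts in AMB10 and none in any other library, and KCNA7, on chromosome 20, lay between 1.28 and 2.62 CPM. KCNA7 overlaps PPP1R13L on the opposite strand, which had a median count of 157 against 101.

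Kv4 genes encode the fast A-type current of dendrites, and here KCND2 and KCND3 were highest in AMB10 and AMB8. KCND2 stood at 133 CPM (AMB10) and 106 (AMB8), with a median of 98.1 and a lowest level of 70.4 in AMB5. Its log2 range of 0.91 was 0.59 without AMB10. KCND3 was at 21.3 CPM (AMB10), 15.8 (AMB8) and between 8.07 and 13.7 elsewhere. KCND1, on the X chromosome, had the reverse order, with 9.92 CPM (AMB10), 11.4 (AMB8) and 14.3 to 21.5 elsewhere.

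Among the auxiliary subunits of Kv channels 10 of 12 genes passed, with a median log2 range of 1.09. A range of at least 1 was seen in 7 of them, and in 1 (KCNIP2) without AMB8 and AMB10. The KCNIP genes encode calcium-binding proteins that bring Kv4 channels to the membrane. KCNIP2 was at 178 CPM (AMB3), 148 (AMB8) and 142 (AMB10), and between 78.6 and 115 in the other 5 libraries. KCNIP4 had its lowest levels in those 3 libraries, with 24.7 CPM (AMB8), 29.1 (AMB10), 43.7 (AMB3) and 44.9 to 66.1 elsewhere. It overlaps PACRGL on the opposite strand, which had a median count of 1003 against 2297. KCNIP3, which is also known as the transcriptional repressor DREAM, was at 38.2 CPM (AMB10), 40.9 (AMB8) and 60.8 (AMB3), against 65.6 to 104 elsewhere. KCNIP1 was at 30.4, 37.2 and 44.0 CPM in AMB8, AMB10 and AMB3, against 52.9 to 66.0. Thus 3 KCNIP genes were low where KCNIP2 was high.

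The KCNAB genes encode cytoplasmic beta subunits of Kv1 channels. KCNAB2 stood at 328 CPM (AMB10) and 310 (AMB8), above the 153 to 224 of the other 6 libraries. KCNAB1 was also highest there, at 114 and 96.8 CPM, and ran from 57.8 to 89.2 elsewhere. It overlaps SSR3 on the opposite strand, which had a median count of 3050 against 3970. KCNAB3 ran from 12.8 to 18.8 CPM, and its log2 range of 0.55 was 0.33 without AMB7. The KCNE genes encode small membrane proteins that modify several Kv pores, and each had low counts. KCNE5, the most counted of them, lay between 2.90 CPM (AMB7) and 6.22 (AMB10), a log2 range of 1.09 that was 0.63 without AMB7. KCNE4 lay between 1.13 and 2.39 CPM, with a log2 range of 1.05 that was 0.67 without AMB10, and KCNE2 between 0.712 and 1.45 CPM. KCNE2 overlaps the noncoding gene LOC108584896 on the opposite strand, which had a median count of 233.5 against 56.5.

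KCNQ channels pass the M current, which is shut by acetylcholine and other transmitters and limits bursts of action potentials. All 5 genes passed, with a median log2 range of 1.27, and 3 had a range of at least 1 with or without AMB8 and AMB10. KCNQ3 (chromosome 8, 127427700 to 127782521) stood at 37.8 CPM (AMB3), 41.5 (AMB8) and 53.4 (AMB10), and between 69.3 and 105 in the other 5 libraries, which did not overlap these 3. KCNQ5 lay between 54.6 CPM (AMB8) and 105 (AMB7). KCNQ1, the subunit of the heart and of epithelia, lay between 1.53 CPM (AMB9) and 3.74 (AMB3).

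The KCNH genes encode EAG, ERG and ELK channels, voltage-gated pores with a cyclic nucleotide binding homology domain. All 8 passed, the median log2 range was 1.60, and 6 had a range of at least 1 (4 without AMB8 and AMB10). KCNH4, an ELK subunit (chromosome 17, 49336390 to 49359343), had the largest log2 range of the 81 genes, 4.05. It stood at 1.42 CPM (AMB10), 1.55 (AMB8), 3.49 (AMB3), 5.18 (AMB5), 9.92 (AMB4), 10.7 (AMB9), 13.6 (AMB6) and 24.1 (AMB7). The order is a gradient and not a single break, and the range was 2.77 without AMB8 and AMB10. KCNH8, another ELK subunit, was at 1.70 CPM (AMB10), 2.22 (AMB8) and 2.79 (AMB5), and highest in AMB7 with 8.62. The remaining ELK gene, KCNH3, had the most counts of the subfamily and was even, between 218 CPM (AMB3) and 334 (AMB6), with a log2 range of 0.61. It overlaps MCRS1 on the opposite strand, which had a median count of 4348 against 16923.

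Within the ERG group, KCNH7 was at 3.54 CPM (AMB8), 4.16 (AMB3) and 4.90 (AMB10), and between 9.03 and 18.0 elsewhere. KCNH2, the ERG gene best known from cardiac repolarization, lay between 14.1 CPM (AMB7) and 24.4 (AMB6). KCNH6 rested on few counts: 14 counts in AMB10 (0.195 CPM, 95% Poisson interval 0.107 to 0.328) and 0.508 to 0.736 CPM elsewhere, so that its log2 range of 1.74 was 0.51 without AMB10. Of the EAG genes, KCNH1 was highest in AMB10 (40.3 CPM) and AMB8 (36.4 CPM) and lowest in AMB9 (15.3 CPM). KCNH5 was lowest in AMB8 (8.72 CPM) and AMB10 (12.3 CPM) and highest in AMB7 (24.1 CPM), and its log2 range of 1.46 was 0.97 without AMB8. The related pair thus had opposite orders in AMB8 and AMB10.

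Inward rectifiers pass potassium more readily into the cell than out of it. Of 15 KCNJ genes 11 passed, with a median log2 range of 1.08, and 7 had a range of at least 1 (3 without AMB8 and AMB10). The Kir3 genes KCNJ3, KCNJ5, KCNJ6 and KCNJ9 encode channels that G proteins open when GABA-B, serotonin and adenosine receptors are active. KCNJ5 (chromosome 12, 5786406 to 5817504) varied most. It had 32 counts in AMB8, or 0.478 CPM (95% Poisson interval 0.327 to 0.674), 0.977 CPM in AMB10 (0.762 to 1.23) and 1.08 in AMB3 (0.787 to 1.45), against 3.64 in AMB4 and up to 7.43 in AMB5. The interval of the highest of these 3 libraries lay below that of AMB4 (3.19 to 4.14). The log2 range of 3.86 was 2.74 without AMB8 and AMB10 and 1.02 without AMB3 as well.

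The other Kir3 genes were more even. KCNJ9, the most counted inward rectifier, lay between 179 CPM (AMB10) and 265 (AMB5), with a log2 range of 0.57. It overlaps IGSF8 and KCNJ10 on the opposite strand (chromosome 1, 130500127 to 130544784). KCNJ3 was at 126 CPM (AMB10), 104 (AMB8) and 68.7 to 98.8 elsewhere, and KCNJ6 lay between 21.8 and 33.6 CPM.

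Kir2 channels are the strong rectifiers of the neuronal resting potential. KCNJ4 was at 36.5 CPM (AMB10) and 39.5 (AMB8), against 62.6 to 100.2 in the other 6 libraries. KCNJ12 was at 6.75 CPM (AMB8) and 8.49 (AMB10), against 14.0 to 22.1. KCNJ2 was highest in AMB3, with 13.2 CPM, and lowest in AMB10, with 6.27.

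KCNJ10 encodes the Kir4.1 channel of astrocytes and oligodendrocytes, which clears potassium after firing. It was highest in AMB10, with 132 CPM, and lowest in AMB7, with 59.9. The 9 astrocyte markers, none at 0, summed to 6340 CPM (AMB10) and 2902 (AMB7), which were also the extremes of that list, with 3257 to 4796 elsewhere. GFAP, the astrocyte filament, was at 1610 and 551 CPM and AQP4, the water channel of astrocyte endfeet, at 865 and 367. FGFR3 of this list was instead highest in AMB8 and GJB6 in AMB3, and these genes and GJA1 were lowest in AMB5. PDGFRB and NOTCH3 of the pericyte list, C1QL2 of the dentate list and MAN1A1, a pyramidal cell marker, also had the extremes of KCNJ10. The sum of the 7 oligodendrocyte precursor markers was also highest in AMB10, with 613 CPM, and lowest in AMB7, with 204. Of these markers PDGFRA and BCAS1 were highest in AMB4 and OLIG1 in AMB6, each with AMB7 lowest. The sum of the 11 oligodendrocyte markers was highest in AMB10 too, with 5004 CPM, but lowest in AMB5, with 780. The part of astrocyte or oligodendrocyte content in the level of KCNJ10 was not tested. KCNJ16, which joins KCNJ10 in Kir5.1-containing channels, was highest in AMB3 with 14.4 CPM and between 4.96 and 9.42 elsewhere, and its log2 range of 1.53 was 0.92 without AMB3. The pore genes of ATP-sensitive channels were KCNJ11, at 22.5 to 32.5 CPM, and KCNJ8, at 3.90 to 8.01 CPM, whose log2 range of 1.03 was 0.58 without AMB5.

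K2P channels carry the leak current that holds neurons near the potassium potential. Of 15 KCNK genes 10 passed, with a median log2 range of 1.16. A range of at least 1 was seen in 6, and in 4 without AMB8 and AMB10. KCNK3, an acid-sensitive TASK subunit (chromosome 14, 26368372 to 26411912), stood at 6.96 CPM (AMB8), 14.2 (AMB10) and 18.1 (AMB3), and between 31.0 and 37.1 in the other 5 libraries. These 5 libraries differed little, with a log2 range of 0.26 against 2.41 over all 8 and 1.38 without AMB8. Its partner KCNK9 was at 13.0 CPM (AMB8), 13.4 (AMB10) and 22.9 (AMB3), and between 26.4 and 31.8 elsewhere. KCNK3, KCNK9 and KCNK12 were highest in AMB7 and lowest in AMB8. The list of 6 markers of thalamus and other forebrain regions had the same extremes in its sum, 211 and 41.4 CPM. Of its members FOXP2 and SLC17A6 shared them, while TCF7L2 was highest in AMB10, PLEKHG1 in AMB9 and LHX9 in AMB3, and GBX2 had no count in AMB4, AMB6, AMB7 and AMB10. The part of such regions in the levels of these genes was not tested.

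The THIK genes are KCNK12 and KCNK13. KCNK12, the most counted K2P gene, was at 24.5 CPM (AMB8), 29.8 (AMB10), 40.7 (AMB3) and 53.7 to 74.3 elsewhere. KCNK13 (chromosome 7, 16371335 to 16490200), the main resting potassium channel of microglia, had 53 counts in AMB8, or 0.791 CPM (95% Poisson interval 0.593 to 1.03), and 0.963 CPM in AMB10 (0.749 to 1.22). The other libraries lay between 2.73 and 7.78 CPM, above both intervals. The 6 microglial markers in the table, none at 0, summed to 76.8 CPM (AMB8), 124 (AMB10), 101 (AMB5) and 162 (AMB6). AMB8 was thus the lowest library for both, while AMB5, the highest for KCNK13, was not the highest for the markers. The part of microglial content was not tested.

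Among the mechanosensitive K2P genes, KCNK2 was at 37.9 CPM in AMB3 and between 18.3 and 22.5 in the other libraries, so its log2 range of 1.05 was 0.30 without AMB3. KCNK2 overlaps the pseudogene LOC101016122 on the opposite strand, which had a median count of 3627. KCNK10 was lowest in AMB10, with 24.1 CPM against 32.9 to 43.7 elsewhere, and its log2 range of 0.85 was 0.41 without AMB10. KCNK4 lay between 4.92 and 7.46 CPM. KCNK1, a weak rectifier found in astrocytes and neurons, was highest in AMB3 with 65.1 CPM and lowest in AMB8 with 26.9, and its log2 range of 1.27 was 0.77 without AMB3. KCNK6 ran from 2.57 to 4.98 CPM, and its log2 range of 0.95 was 0.52 without AMB6, and KCNK17 between 1.53 and 3.07 CPM.

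Calcium- or sodium-activated channels had a median log2 range of 0.85 over 10 genes of 12, and 4 had a range of at least 1 (3 without AMB8 and AMB10). KCNMA1, the pore of the large-conductance BK channel, was even, between 248 CPM (AMB8) and 346 (AMB5), with a log2 range of 0.48. KCNMB4, its main neuronal beta subunit, lay between 119 CPM (AMB10) and 188 (AMB5), and KCNMB2 had a log2 range of 0.50. KCNMB1, the beta subunit of smooth muscle, was at 1.55 CPM in AMB4 (99 counts, 95% Poisson interval 1.26 to 1.88) and 0.299 in AMB5 (13 counts, 0.159 to 0.512). The 6 pericyte and smooth muscle markers, none at 0, summed to 436 CPM (AMB4) and 183 (AMB5), with 156 in AMB8, the lowest, and up to 277 elsewhere. Of these markers TAGLN, an actin-binding protein of smooth muscle, had the extremes of KCNMB1 (80.6 and 12.4 CPM). ACTA2 and MYH11 were also highest in AMB4, with other lowest libraries, and RGS5, PDGFRB and NOTCH3 were highest in AMB10. VWF of the endothelial list and COL1A1 and COL3A1 of the meningeal list also had the extremes of KCNMB1. KCNMB1 lies inside KCNIP1 on the opposite strand, and KCNIP1 had a median count of 2768 against 35.5. The part of smooth muscle and of overlapping reads in the level of KCNMB1 was not tested. KCNMB3, with 22 to 54 counts, lay between 0.350 and 1.33 CPM and overlaps PIK3CA, also on the opposite strand.

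Small-conductance KCNN channels, opened by calcium through calmodulin, carry the afterhyperpolarization that follows a spike. KCNN2 (chromosome 5, 107164054 to 107302570) was at 43.6 CPM (AMB10) and 43.2 (AMB8), and between 13.8 in AMB7 and 26.3 in AMB3 elsewhere. KCNN1, the most counted of them, was at 110 CPM (AMB8) and 108 (AMB10), against 61.8 to 84.8. Both genes therefore had AMB8 and AMB10 above every other library. KCNN3 lay between 6.90 CPM (AMB8) and 11.1 (AMB4). Of the sodium-activated channels, KCNT2 ranged from 23.4 CPM in AMB5 to 50.8 in AMB7, with a median of 34.5. KCNT1 lay between 20.1 CPM (AMB8) and 36.7 (AMB5), a log2 range of 0.87 that was 0.57 without AMB5.

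HCN channels had a median log2 range of 0.73 over 3 genes, the smallest of the classes over all 8 libraries. Without AMB8 and AMB10 it was 0.55, above the 0.50 of calcium- or sodium-activated channels. HCN4 (chromosome 7, 115720503 to 115770067), the slow subunit of the cardiac pacemaker and thalamus, was at 26.0 CPM (AMB8), 28.8 (AMB10) and 34.2 to 43.0 elsewhere, with a median of 35.9. HCN3 (chromosome 1, 125951325 to 125964896) was at 13.4 CPM (AMB10) and 15.1 (AMB8), and between 24.6 and 35.9 in the other 6 libraries. Its log2 range of 1.42 was 0.55 without AMB8 and AMB10. HCN3 overlaps PKLR on the opposite strand. HCN4 was highest in AMB5. Of the 7 interneuron markers GAD1, VIP and LHX6 had the same highest and lowest libraries as HCN4, SLC32A1 and SST were highest in AMB6 and GAD2 in AMB3, all 3 with AMB8 lowest, and PVALB was highest in AMB10 and lowest in AMB5. ALAS2 of the blood list also had the extremes of HCN4, and so did other channel genes, among them KCNJ5, KCNK13 and KCNMA1. The part of interneuron or blood content was not tested.

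**Figure D3:**
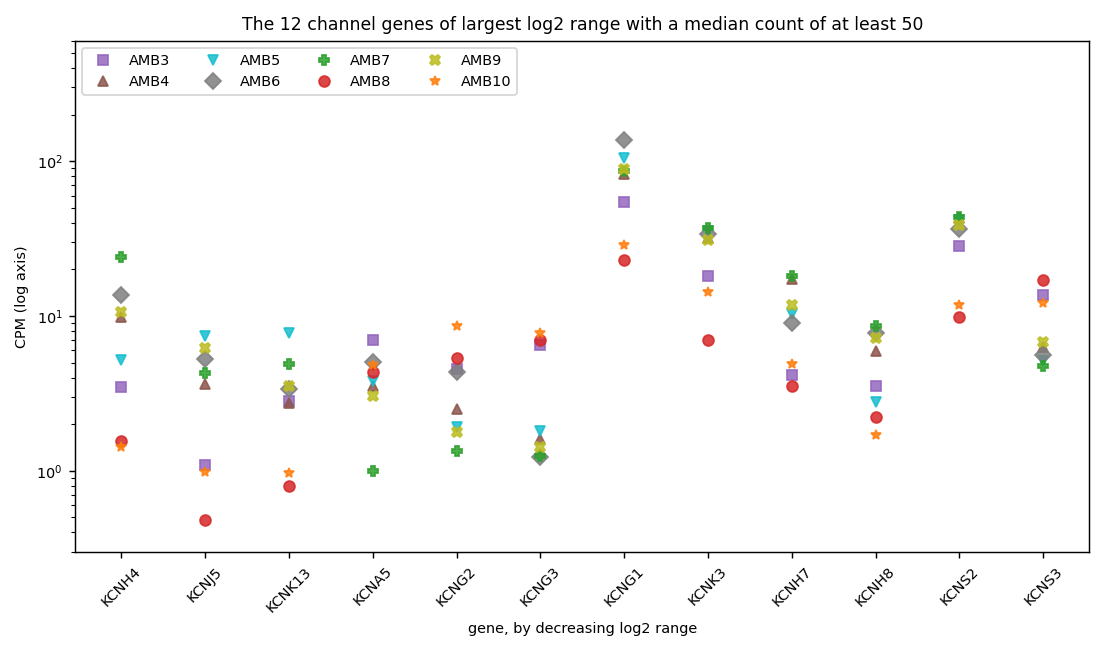
CPM on a log axis (vertical) in each of the 8 libraries (symbols) for the 12 channel genes of largest log2 range with a median count of at least 50 (horizontal axis, in decreasing order). AMB8 and AMB10 lie at or near the bottom for KCNH4, KCNJ5, KCNK13, KCNG1, KCNK3, KCNH7, KCNH8 and KCNS2 and near the top for KCNG2, KCNG3 and KCNS3, and AMB7 is lowest for KCNA5.

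Because scaling of the libraries cancels in a ratio of counts within a library, 14 pairs of related subunits were also described by that ratio, a list drawn up after the values were seen. Ratios depend on transcript length, so only their change between libraries is read. The ratio of KCNA1 to KCNA2 ran from 0.216 in AMB7 to 1.10 in AMB8, a 5.07-fold difference, with AMB10 and AMB3 next to the top and at most 0.498 elsewhere. KCNIP2 to KCNIP4 was 4.88 in AMB10, 4.08 in AMB3 and higher still in AMB8, and 1.35 to 2.09 elsewhere. In these pairs, which belong to Kv1 and Kv4 channels, the balance of subunits in AMB3, AMB8 and AMB10 did not overlap that in the other libraries.

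KCNJ5 to KCNJ3 had the widest span, from 0.00460 in AMB8 to 0.0955 in AMB5, a 20.8-fold difference that rests on the low counts of KCNJ5. KCNJ9 to KCNJ3 was 1.42 in AMB10 and 1.77 in AMB8, and highest in AMB5 with 3.41. KCNA6 to KCNA2 was 0.440 in AMB10 and 0.458 in AMB8, against 0.792 to 1.20, the reverse of KCNA1 to KCNA2. In the glial pair KCNJ16 to KCNJ10 the ratio was 0.0442 in AMB8 and 0.0448 in AMB10, and highest in AMB3 with 0.147. The TASK pair KCNK3 to KCNK9 was lowest in AMB8 with 0.536 and AMB3 with 0.789, and stayed between 1.06 and 1.34 in the other 6 libraries, AMB10 included. The most even pairs were KCNC1 to KCNC2 (1.39-fold between extremes) and KCNMB4 to KCNMA1 (1.49-fold).

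**Figure D4:**
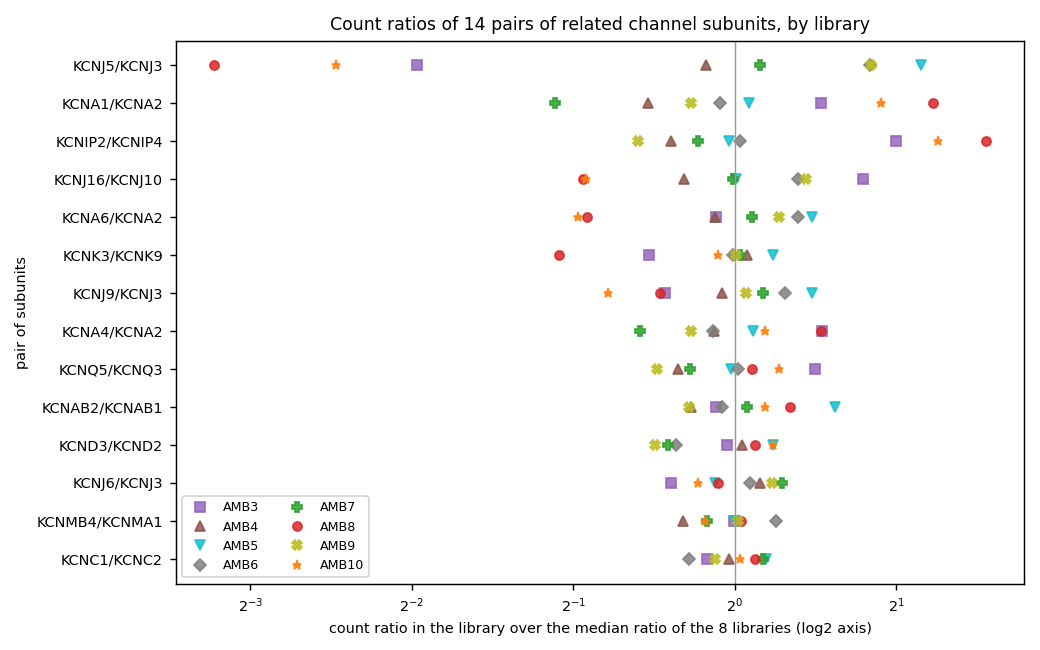
Ratio of the counts of both subunits in each library (symbols) over the median ratio of the 8 libraries, on a log2 axis (horizontal), for 14 pairs of related channel subunits (vertical axis, widest at the top). AMB3, AMB8 and AMB10 lie apart from the rest for KCNJ5/KCNJ3, KCNA1/KCNA2 and KCNIP2/KCNIP4, and all libraries lie together for KCNC1/KCNC2.

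The 16 genes that did not pass the filter were at or near the limit of detection in at least 1 library. KCNV2, a silent subunit of the retina, had no count in any library, so that a level of up to 0.0754 CPM (3 counts in AMB9, the shallowest library) cannot be seen. KCNK16 had 1 count in all, KCNU1 at most 4 counts in a library, and KCNE3 at most 2. KCNJ13, the Kir7.1 channel of choroid plexus, had 161 counts in AMB7 (2.25 CPM, 95% Poisson interval 1.92 to 2.63) and 136 in AMB10 (1.90, 1.59 to 2.25), but none in AMB5 (up to 0.0690 CPM) and at most 0.373 CPM elsewhere. It overlaps GIGYF2 on the opposite strand, which had a median count of 4974.5. KCNN4, the intermediate-conductance channel of blood cells and activated microglia, was at 1.91 CPM in AMB8 (1.59 to 2.27) and 1.75 in AMB6 (1.42 to 2.14), against 0.0984 to 0.453 elsewhere. KCNK18, a K2P gene of sensory neurons, was at 1.84 CPM in AMB9 (1.44 to 2.31) and at most 0.369 elsewhere, and KCNK15 at 2.46 CPM in AMB9 (98 counts) and at most 0.791 elsewhere. KCNK15 overlaps RIMS4 on the opposite strand, which had a median count of 14406. KCNE1 ranged from 0.0503 CPM in AMB9 (2 counts) to 1.33 CPM in AMB5 (58 counts). The intervals cover counting error only. The remaining genes, KCNA10, KCNG4, KCNJ1, KCNJ14, KCNJ15, KCNK5 and KCNK7, had at most 0.837 CPM in any library.

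Proteins that assemble with these channels or place them in the membrane were more even than the channel genes. Of 35 listed partners 34 had a row and 31 passed the filter. A log2 range of at least 1 was seen in 11 of the 31, against the 36.1% of all genes, and none that passed had a range of 2 or more. The median was 0.65. Without AMB8 the count was 7, and without AMB8 and AMB10 it was 5. PEX5L, the TRIP8b protein that traffics HCN channels, ranged from 129 CPM in AMB6 to 434 in AMB10. Of the Kv4 partners, DPP10 was lowest in AMB8 (44.1 CPM) and highest in AMB7 (135 CPM), and DPP6 lay between 244 CPM (AMB7) and 476 CPM (AMB10). ADAM22, which binds Kv1 complexes on axons, ran from 93.6 CPM in AMB8 to 261 in AMB7, and CNTNAP2, the axonal Kv1 adhesion protein, from 73.7 CPM in AMB8 to 169 in AMB5. Of the partners that did not pass, LRRC38, a gamma subunit of BK channels, was at 3.11 CPM (AMB7) and 0.0299 (AMB8), while LRRC26 and LRRC52 were at most 0.184 and 0.246 CPM.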

How the data were processed

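Total RNA of fetal baboon hippocampus was sequenced in 8 libraries. Per the file headers the table gives raw and normalized values per RefSeq gene. The deposited raw columns are estimated counts, of which between 22.5% and 26.7% of values above 0 were whole (tolerance 0.001). The deposited normalized columns are log2 values, found here to be centred on the median of AMB3, AMB8 and AMB10. The submitters' processing notes name DESeq and no version of it. For the aligner, counter and build, the answer is not given in the sources used here. All 97 members matched RefSeq of assembly Panubis1.0 by identifier, symbol, start and end.

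Counts were rounded and scaled over the whole table by trimmed mean of M-values in edgeR 4.0.16. Genes were kept by filterByExpr (minimum count 10). Log2 CPM used a prior count of 2. The range calculation was tested on simulated data. Alternatives were total counts, DESeq2 1.42.0 size factors, the deposited values, a prior count of 0.5, no filter and leaving out libraries. Poisson intervals are exact.

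Values are given for the 12 genes of largest range with a median count of at least 50, the most counted gene of each subfamily and the HCN genes, and others by range. Pathway partners were named beside their channel or at a log2 range of at least 2. Members, lists and rules were chosen with earlier results of these data known. Results for some genes are not reported here.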

Additional observations from a re-analysis of the deposited data

Results flagged for a closer look

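Among the 32 channel genes chosen by rule for full values, KCNA5 was the only gene with a library far from the other 7. Genes outside the 32 were not checked in this way, among them KCNK2 and KCNH6, whose ranges also shrank when a single library was left out. The lowest library of KCNA5, AMB7 with 0.993 CPM, was separated from the next by a gap of 0.566 of the whole range, above Dixon's critical value for 8 libraries. The chance rate of about 1 of 20 genes that goes with this value holds only for genes not chosen by their range. KCNA5 was among the 32 through its large range, which was 2.77 with AMB7 and 1.20 without it. The gap is therefore a description, and no chance rate can be given for it.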

How the results depend on the processing

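No paired analysis was possible because the labels give no groups. Under other scalings, the deposited values, a prior count of 0.5 and each library left out, the log2 ranges of the 32 channel genes chosen by rule moved by less than 1 SD over libraries in 375 of 384 cases, and the other 9 cases all left out a library. A range cannot change when a library that is neither highest nor lowest for the gene is left out. Many of the 375 cases could therefore not have moved. Without AMB8 and AMB10, 26 channel genes instead of 47 had a log2 range of at least 1, 6 instead of 12 a range of at least 2, and 5 partners instead of 11 a range of at least 1. Without AMB3 as well these counts were 11, 3 and 3. These 2 settings were added after the data were seen. With no filter on low counts 22 channel genes had a range of at least 2. Leaving out each library in turn gave 7 (without AMB8) to 11 partners with a range of at least 1. Genes highest in AMB5 numbered 11 instead of 19 with total counts, and genes highest in AMB8 numbered 3 with the deposited values instead of 5. The cause of these shifts was not tested. Counting error limits the genes that did not pass the filter, whose levels rest on few reads in at least 1 library.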
